A study of Drosophila melanogaster with 2 samples.

Results

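Peaks at 10 Drosophila melanogaster genes of neural and glial fate were described. The proneural genes were achaete (ac), scute (sc) and lethal of scute (l(1)sc), and the neuroblast genes were asense (ase) and deadpan (dpn). Miranda (mira) and prospero (pros) act in asymmetric division. Glial cells missing (gcm) and reversed polarity (repo) are glial genes, and elav is a neuronal gene. These 10 genes are among the 13968 protein-coding genes of the annotation. The genes were listed by name, and a peak belonged to a gene when its summit lay in the gene or within 10 kb of it.

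The data came from whole embryos aged 0 to 24 h of a fly strain that carries an insertion expressing a CG10321-eGFP fusion protein, that is, the product of the gene CG10321 joined to a green fluorescent tag. Chromatin sheared by sonication to fragments of 200 to 800 bp was precipitated with an antibody against GFP and sequenced (ChIP-seq). There were 2 biological replicates of 1 group, and the labels do not say whether they came from separate embryo collections. No other genotype, stage or treatment was analysed, the control that the labels name was not used here, and the promoter that drives the fusion protein is not given in the sources used here. The embryos held all cell types and stages at once, so no value below belongs to a neuron, a glial cell or a neuroblast in particular.

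In the embryonic nervous system, the Achaete-Scute proteins are basic helix-loop-helix factors that bind E-box DNA together with Daughterless and let cells of the neuroectoderm become neuroblasts, the neural stem cells. Neuroblasts express Asense and Deadpan, and when they divide, the adaptor Miranda carries the homeodomain protein Prospero into the smaller daughter, whose progeny become neurons or glia. Gcm switches cells to the glial fate and turns on repo, whose homeodomain product maintains that fate, while the RNA-binding protein Elav marks neurons after their last division.

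The summits of the 4 thresholded lists were unevenly spread over these genes. Repo, elav, pros, mira and gcm had at least 1 peak in the conservative list, which draws on both replicates, while dpn, ase, l(1)sc, sc and ac had none in any of the 4 lists. The strongest peaks lay at repo and the next at elav. The 5 genes with a peak in the conservative list compare with 45.9% of all protein-coding genes, so this share was near the background, slightly above it. In the other thresholded list drawn from both replicates the count was 4 genes, beside and below 50.1% of all protein-coding genes. It was 3 genes in replicate 1, beside 35.3%, and 4 genes in replicate 2, beside 36.4%. The list of replicate 2 lacked the mira peak, and that of replicate 1 lacked those of mira and gcm.

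Closer to the genes, 3 of the 10 (repo, elav and mira) had a conservative summit within 500 bp of a transcription start site (TSS), the 5′ end of any annotated transcript, beside 10.9% of all protein-coding genes. The other list gave the same count of 3, beside 12.3%. Each replicate list gave 2 genes, repo and elav, beside 7.9% of genes in replicate 1 and 8.16% in replicate 2. With 10 genes these counts are a description, and no test was made.

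The conservative list held 11 peaks at the 10 genes out of 3006 peaks on the chromosome arms. They fell into 9 separate loci, and 4 of these loci had a peak in all 4 lists. The density was 3.62 peaks per 100 kb over the 304 kb of gene windows, against 2.19 per 100 kb over the genome. In the other list it was 2.64 against 2.52, in replicate 1 it was 2.31 against 1.46, and in replicate 2 it was 1.98 against 1.55. The genome figure covers all known bases of the chromosome arms, not windows around genes, so it is not a matched background. Only 3 of the 11 peaks had one of these genes as the gene with the nearest protein-coding TSS, while 7 of the 11 lay within 500 bp of the TSS of some protein-coding gene, beside 43.6% of all conservative peaks. Several peaks counted at a fate gene therefore sat at the start of a neighbour, and which gene a peak acts on was not tested.

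The signal value, given to each peak by the authors' peak caller on a scale that the sources used here do not give, was read only within a list. The 11 peaks ranged from 24.6 to 638 with a median of 85.4, and all conservative peaks had a median of 100. In the other list the median was 131 over 8 peaks, against 91 over the list. In replicate 1 it was 67.1 over 7 peaks, against 70.4, and in replicate 2 it was 142 over 6 peaks, against 72.6. The median of these peaks was thus below that of all peaks in the conservative list and in replicate 1, and above it in the other list and in replicate 2. The 3 summits within 500 bp of a TSS of repo, elav or mira had a median signal of 243, against 108 over the 1418 conservative peaks within 500 bp of any TSS. With 3 peaks this median is the elav signal, with repo above it at 619, while mira, at 92.4, was below 108.

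**Figure D1:**
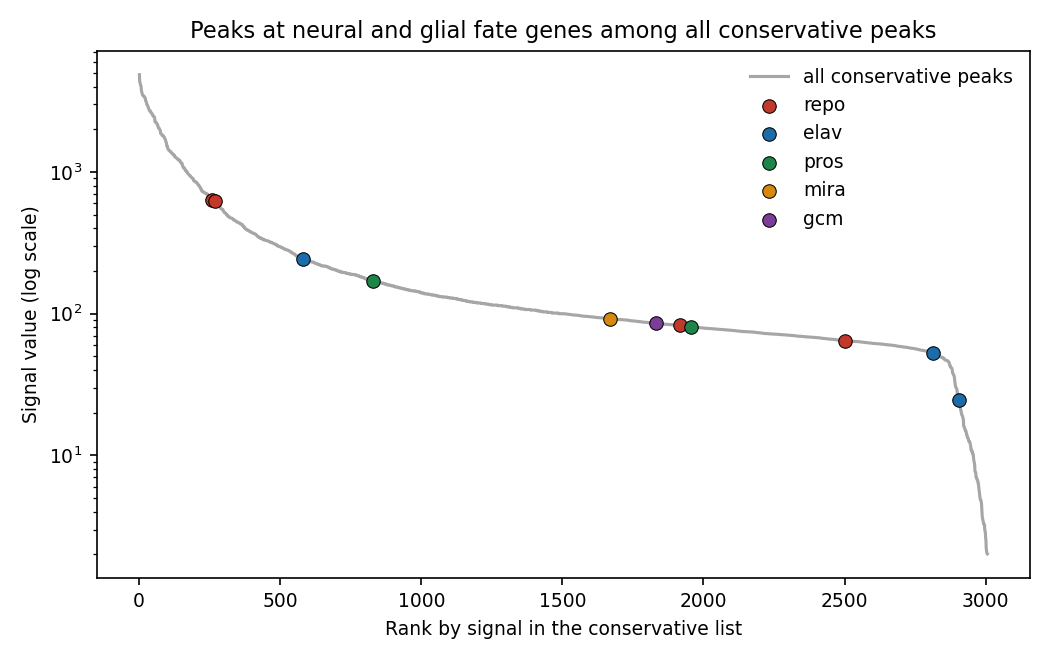
The line gives the signal value (log scale) of every conservative peak against its rank, and the coloured points are the 11 peaks at repo, elav, pros, mira and gcm. Both strong repo peaks (638 and 619) lie at the left, and the 2 weakest points (52.9 and 24.6) are peaks near the far end of elav.

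**Figure D2:**
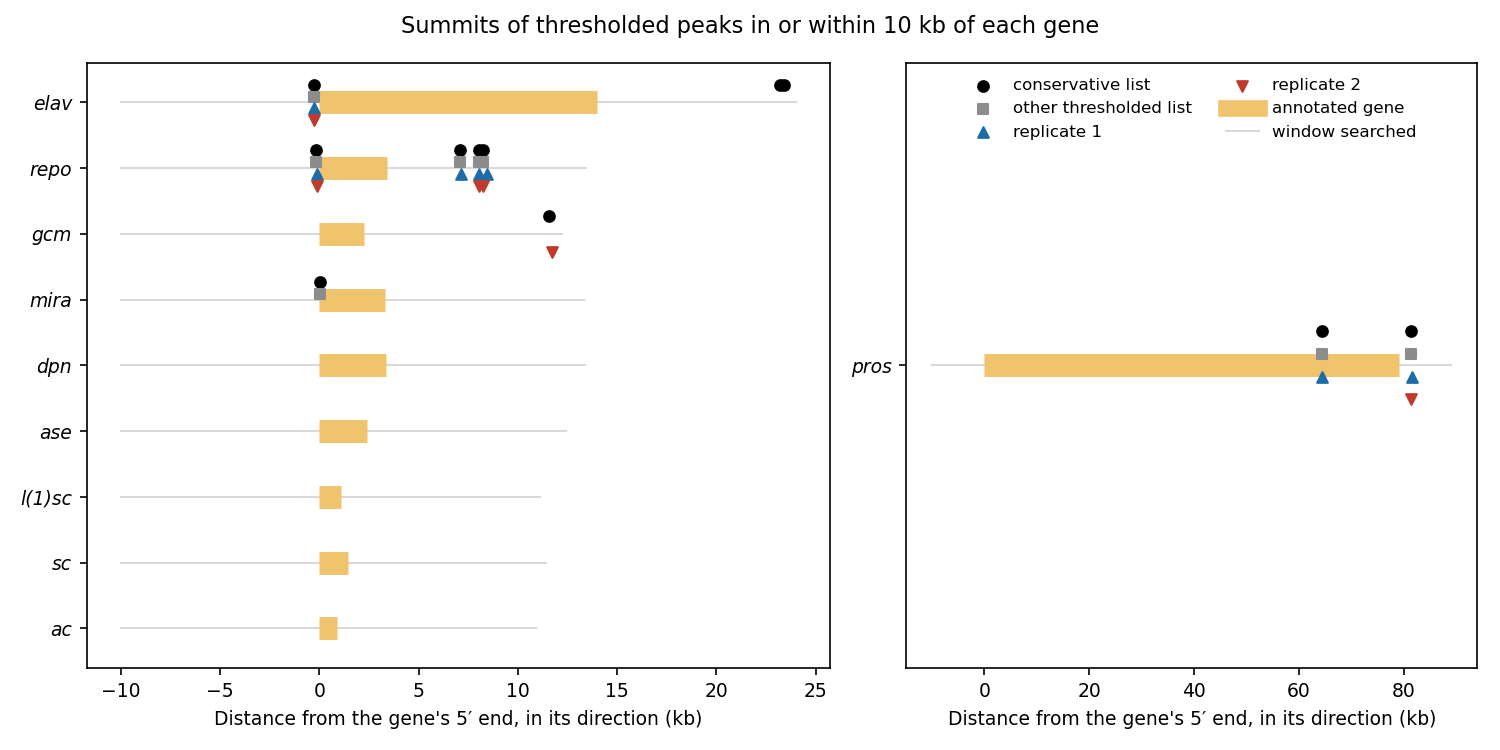
Summits of the 4 thresholded lists are drawn by their distance in kb from the 5′ end of each gene, in the direction of transcription, with pros on its own axis because of its length. Symbols lie at the start of repo, elav and mira, inside pros, and beyond the 3′ end of repo, pros, gcm and elav, and the windows of dpn, ase, l(1)sc, sc and ac are empty.

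The genes of the achaete-scute complex lie in a row near the tip of the X chromosome, with 1 other protein-coding gene between l(1)sc and ase. In dm6, ac (FBgn0000022) spans X 370031 to 370947, sc (FBgn0004170) spans 396060 to 397497, l(1)sc (FBgn0002561) spans 409721 to 410817 and ase (FBgn0000137) spans 460747 to 463176, all on the plus strand. No thresholded summit lay in the 93146 bp from the start of ac to the end of ase in any list. Between the nearest conservative summits on either side, at 356310 (nearest to yellow, a pigmentation gene) and at 494000 (nearest to CG17896), 137690 bp were free of summits. Of the 3000 gaps between neighbouring summits of that list, 206 were longer, and the median gap was 16022 bp. In the other list the stretch reached from 278642, nearest to erect wing (ewg), to 494000 and measured 215358 bp. There, 62 of 3451 gaps were longer. Replicate 1 had the same stretch at 215366 bp, with 106 of 1990 gaps longer, and replicate 2 had it at 215361 bp, with 104 of 2122 longer. Any gap that holds the whole span from ac to ase is longer than 93146 bp by construction. Its place among all gaps is therefore a description, and a depletion of summits was not tested.

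The nearest conservative summit lay 13721 bp from ac, 39750 bp from sc, 53411 bp from l(1)sc and 30824 bp from ase, where the median over 13945 protein-coding genes was 11882 bp. From ac it lay 91389 bp away in the other list, because the summit near yellow was in the conservative list alone. The gene just inside the 10 kb limit was gcm, at 9346 bp, and the gene just outside it was ac.

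Each replicate also had a ranked list that keeps weak peaks, down to a score of 15 out of 1000 in replicate 1 and 12 in replicate 2, where no thresholded peak scored below 830. The stretch from ac to ase covers 93146 bp of a genome of 137 Mb. Inside it, the ranked lists held 40 of their 84640 peaks in replicate 1 and 54 of 94184 in replicate 2. In or within 10 kb, ase had 9 and 19 ranked peaks in replicates 1 and 2, and l(1)sc 7 and 13. Sc had 6 and 14, and ac 3 and 8. The median over all protein-coding genes was 19 in each replicate, and none of these counts was above it. That median is over genes of every length, and no median count was made over short genes alone. The strongest ranked peak in or within 10 kb of ase, which acts in neuroblasts after their selection, had a signal of 21.5 in replicate 1 and 18.3 in replicate 2. For l(1)sc, a proneural gene of the ventral neuroectoderm, it was 19.7 and 18.8. For sc it was 14.1 and 18.8, at peaks that lay nearer to l(1)sc, since the windows of these neighbours overlap. The peak of 18.8 in replicate 2 was the same one for sc and l(1)sc. For ac it was 12.4 and 21.9, and the peak of replicate 2 lay nearest to yellow.

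All of these values were below the median of the strongest ranked peak over all protein-coding genes. That median was 32.9 in replicate 1 and 33 in replicate 2. The values come from neighbouring genes, and sc and l(1)sc share a peak in replicate 2, so they are not independent. The share of protein-coding genes with a lower value was 13.4% and 6.64% for ase in replicates 1 and 2, and 8.23% and 7.64% for l(1)sc. It was 1.73% and 7.64% for sc, and 1.33% and 16.9% for ac. A long gene has a wide window and more chances of a strong peak. Among the 9276 protein-coding genes of at most 3500 bp, a background chosen after seeing the data, the share was 16.1% and 7.84% for ase, 10.1% and 9.06% for l(1)sc, 2.23% and 9.06% for sc, and 1.71% and 20.1% for ac. Within 500 bp of the TSS of sc neither replicate had a ranked peak, while l(1)sc had 1 of signal 11.3 in replicate 1 and 2 in replicate 2, the stronger of signal 11.6. At ase and ac a ranked peak near the TSS was present in replicate 2 alone, with signals of 7.69 and 10.4. The share of all protein-coding genes with a ranked peak this near a TSS was not counted, so these counts cannot be called particular to these genes.

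Deadpan, a helix-loop-helix repressor that keeps neuroblasts in their stem-cell state (dpn, FBgn0010109, minus strand of 2R, 8228971 to 8232330), had no thresholded peak either. Its nearest summit lay 50644 bp away in the conservative and other lists, 82706 bp in replicate 1 and 50634 bp in replicate 2. In the conservative list 85.6% of protein-coding genes had a summit nearer to them. The strongest ranked peak in its window had a signal of 27.3 in replicate 1 and 44.2 in replicate 2, with scores of 47 and 37. These peaks differed in place, at -7029 and -9233 bp from the dpn TSS (negative is upstream), and both were nearer to the septin gene peanut (pnut). Dpn thus ranked below the median gene in replicate 1, above 33.7% of protein-coding genes, and above it in replicate 2, at 62.8%.

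Miranda, the adaptor that carries Prospero to one side of the dividing neuroblast (mira, FBgn0021776, minus strand of 3R, 19931799 to 19935120), had a single conservative peak at its start. The peak covered chr3R:19934882-19935231 with a signal of 92.4, rank 1668 of 3006, and was also in the other list. Its summit lay 59 bp upstream of one of the 2 mira start sites, inside the 5′ UTR of the transcript from the other start site and within an intron of Hs6st, a heparan sulphate sulphotransferase gene. Neither thresholded replicate list held it. The ranked lists had a peak within 5 bp of that summit, with a signal of 52.2 and a score of 542 in replicate 1 and a signal of 41.1 and a score of 702 in replicate 2. In both replicates the value was above the median gene, with 70.9% and 60.7% of protein-coding genes lower.

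Prospero, the homeodomain factor that ends stem-cell divisions (pros, FBgn0004595, plus strand of 3R, 11328480 to 11407627), is the longest of the 10 genes at 79148 bp, and it had 2 conservative peaks, neither within 500 bp of its 4 start sites. One lay in its last part, in a 3′ UTR exon (chr3R:11392819-11393168), 20206 bp from the nearest pros TSS, with a signal of 80.6 and rank 1956. In replicate 1 the signal there was 43 with a score of 904, and in replicate 2 the peak was in the ranked list only, with 37.8 and a score of 566. The other peak (chr3R:11409806-11410155) lay beyond the 3′ end of pros, between the divergent genes mgr, a prefoldin subunit gene, and Irbp, the fly Ku70 gene of DNA end joining. Its signal was 170, rank 829, and both replicates called it, with 65.6 in replicate 1 and 109 in replicate 2. The conservative summit was 66 bp upstream of the Irbp TSS, and the summit of replicate 2 was nearest to mgr, 79 bp upstream of its TSS.

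At the pros start sites the ranked lists held only weak peaks, the best with a signal of 8.73 in replicate 1 and 16.6 in replicate 2. The sequence around the summit between mgr and Irbp is shown for its base composition. Its G and C content was 14.9%, and 0.166% of conservative peaks had a lower value. It covers chr3R:11409931-11410031 of dm6 on the plus strand, 5′ to 3′, from RefSeq, and the capitals mark TATAAA.
pros, downstream peak: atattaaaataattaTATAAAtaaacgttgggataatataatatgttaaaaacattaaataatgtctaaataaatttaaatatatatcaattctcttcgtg

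Gcm, the switch to the glial fate (gcm, FBgn0014179, minus strand of 2L, 9579498 to 9581745), had a peak only at the far edge of its window. The conservative peak (chr2L:9569977-9570326) had a signal of 85.4, rank 1830, and its summit lay 9346 bp from gcm, in an intron of the gene brwl and 119 bp upstream of a brwl TSS. Replicate 2 called a peak there with a signal of 51.7, and its summit was 149 bp from the conservative one. In replicate 1 the matching ranked peak had a signal of 35.1 and a score of 312. The other list had no peak within 10 kb of gcm, and its nearest summit was 10764 bp away. Within 500 bp of the gcm TSS neither ranked list held a peak, and the share of all genes without one was not counted. The sequence shown is that around the brwl summit, which carries an E-box, the CANNTG word bound by helix-loop-helix proteins. It covers chr2L:9570102-9570202 of dm6 on the minus strand, the strand of gcm, 5′ to 3′, from RefSeq. Capitals mark CANNTG and, on the opposite strand, TATAAA.
gcm, brwl peak: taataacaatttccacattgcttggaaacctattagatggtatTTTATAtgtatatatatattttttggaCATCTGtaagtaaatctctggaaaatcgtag

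Repo, the homeodomain gene of glial cells (repo, FBgn0011701, plus strand of 3R, 18236192 to 18239602), had the strongest peaks of the set and the most, with 4 in the conservative list. The peak at its start covered chr3R:18235946-18236187, with its summit 137 bp upstream of the repo TSS. Its signal was 619, rank 270 of 3006, with 335 in replicate 1 and 289 in replicate 2. Both replicates called it, and their summits were 13 bp apart. Among the 1353 pairs of peaks shared by the replicate lists it ranked 279 in replicate 1 and 257 in replicate 2. This gap of 22 ranks was smaller than the median gap of 117, and 17.2% of pairs had a smaller one.

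A peak of like strength lay downstream of repo, 8042 bp from its TSS, in an intron of 14-3-3epsilon, which encodes a phosphoserine-binding adaptor protein, and 1547 bp downstream of a TSS of that gene. It covered chr3R:18244066-18244422 with a signal of 638, rank 257, and had 360 in replicate 1 and 309 in replicate 2. Its ranks among the shared pairs were 261 and 239, again 22 apart, and the replicate summits were 1 bp apart. An overlapping peak (chr3R:18244259-18244608) had a signal of 82.6, rank 1915. Among the shared peaks at these genes the replicate ranks differed most here, with 105 in replicate 1 and 42.6 in replicate 2, summits 195 bp apart and ranks 656 and 1313. Of the shared pairs, 99.5% had a smaller gap. Whether summits this far apart mark the same site was not tested. The last peak (chr3R:18243115-18243464), 603 bp downstream of the 14-3-3epsilon TSS, had a signal of 64.6, rank 2503. Replicate 1 called it with a signal of 49, and in replicate 2 it was a ranked peak of 28.5 with a score of 25.

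By its strongest peak, the one in the 14-3-3epsilon intron, repo stood above 94.6% of protein-coding genes in replicate 1 and 94.7% in replicate 2. Among genes of at most 3500 bp it stood above 96.1% in both. The sequences of its 2 strong peaks are shown because they carry the highest signals among these genes. The first is the whole peak at the start of repo, chr3R:18235946-18236187, and the second the bases around the downstream summit, chr3R:18244184-18244284, both dm6, plus strand, 5′ to 3′, from RefSeq. Capitals mark TATAAA in the first and CANNTG in the second.
repo, start-site peak: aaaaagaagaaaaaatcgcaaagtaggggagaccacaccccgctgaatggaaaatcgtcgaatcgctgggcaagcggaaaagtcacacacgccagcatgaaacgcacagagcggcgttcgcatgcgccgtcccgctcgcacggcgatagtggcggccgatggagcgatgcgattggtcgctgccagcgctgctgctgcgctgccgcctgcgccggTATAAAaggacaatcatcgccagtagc
repo, downstream peak: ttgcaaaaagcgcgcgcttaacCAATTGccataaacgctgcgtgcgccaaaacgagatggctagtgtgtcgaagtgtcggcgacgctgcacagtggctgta

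The TATAAA of the repo start-site peak begins 31 bp upstream of the TSS. TATAAA on the gene strand beginning 40 to 20 bp upstream of the most upstream TSS was found at 2 of the 10 genes, repo and ac (34 bp upstream), and at 7.78% of protein-coding genes. The word was added after seeing the data, so this count is a description only. Ac had this word and no thresholded peak. The summit window of the repo start had a G and C content of 64.4%, higher than in 98% of conservative peaks, in contrast to the window between mgr and Irbp.

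The neuronal RNA-binding gene elav (FBgn0260400, minus strand of X, 509235 to 523226) had 3 conservative peaks, 1 of them at its start. That peak was only 95 bp wide (chrX:523414-523508), lay in an intron of the arginase gene arg and had its summit 243 bp upstream of the nearest of 2 elav start sites. Its signal was 243, rank 580. Both replicates called it, with 67.1 in replicate 1 and 176 in replicate 2, and their summits were 10 bp apart. The summits were close and the strengths were not: the peak ranked 983 among the shared pairs in replicate 1 and 407 in replicate 2, and 98.3% of pairs had a smaller gap. The peak between mgr and Irbp was placed the same way, ranking 1003 in replicate 1 and 657 in replicate 2, with 85.7% of pairs having a smaller gap.

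The remaining elav peaks lay beyond its 3′ end, at the start of silver (svr), a carboxypeptidase gene. They overlapped each other (chrX:499650-499999 and chrX:499851-500200), with signals of 52.9 and 24.6, ranks 2813 and 2906 of 3006. One summit was 133 bp upstream of the svr TSS and the other 68 bp downstream, in the svr 5′ UTR. The conservative list alone held them. In the ranked lists 1 peak overlapped both, with a signal of 30.3 and a score of 335 in replicate 1 and a signal of 39.8 and a score of 25 in replicate 2.

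The sequence of the elav start-site peak is shown whole. It covers chrX:523414-523508 of dm6 on the minus strand, the strand of elav, 5′ to 3′, from RefSeq, and holds no TATAAA, no E-box and no GAGAGAG word. Its summit window had a G and C content of 29.7%.
elav, start-site peak: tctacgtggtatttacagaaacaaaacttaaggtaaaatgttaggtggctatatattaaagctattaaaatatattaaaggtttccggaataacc

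**Figure D3:**
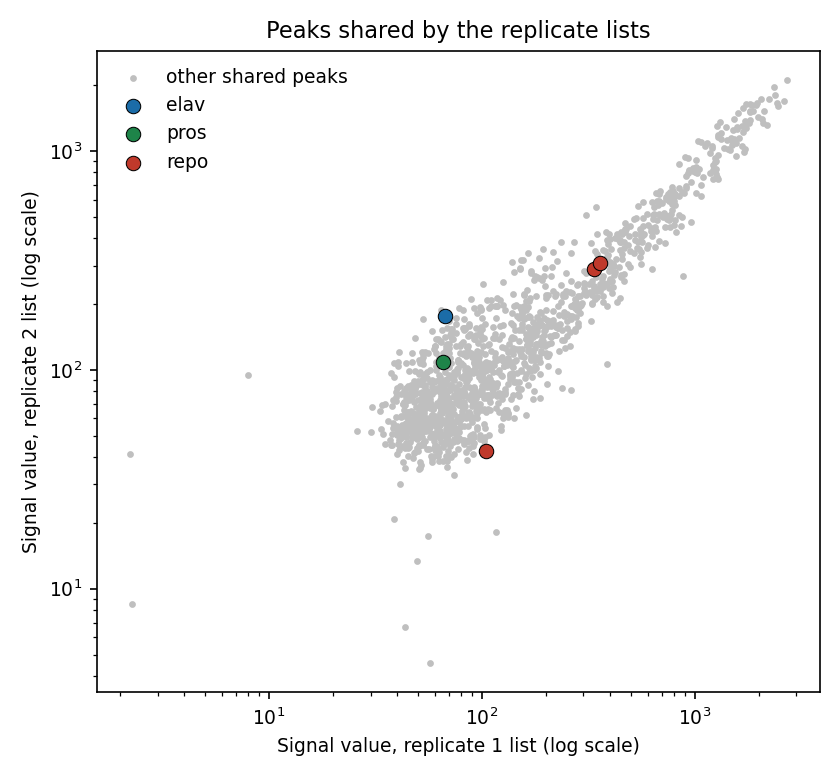
Each point is 1 of the 1353 pairs of peaks shared by the replicate lists, with the signal in replicate 1 on the horizontal and in replicate 2 on the vertical axis, both on log scales. Both strong repo peaks lie inside the upper part of the band, the elav start-site peak lies above it (67.1 and 176) and the weaker repo peak below it (105 and 42.6).

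Of the 11 conservative peaks, 5 were overlapped by at least 1 bp by a peak of each thresholded replicate list, against 45.8% of all conservative peaks, so the share was near the background. These were 3 of the repo peaks, the elav start-site peak and the peak between mgr and Irbp. When ranked peaks of any score were counted, all 11 were overlapped in both replicates, as were 99.1% of all conservative peaks, so this count says nothing particular about the 11.

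**Figure D4:**
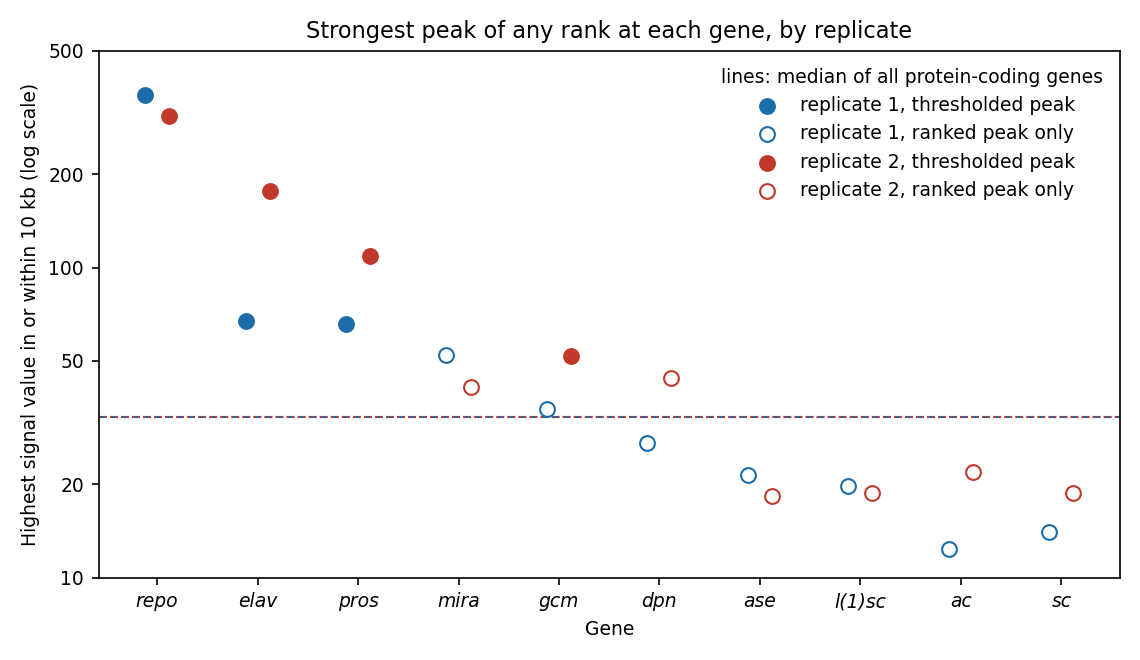
For each of the 10 genes, the points give the highest signal value (log scale) of any peak in or within 10 kb in replicate 1 (blue) and replicate 2 (red), filled where the gene has a thresholded peak in that replicate and open where it has ranked peaks only. The lines mark the medians over all protein-coding genes, 32.9 and 33, with ase, l(1)sc, ac and sc below them in both replicates, dpn on either side, and repo highest at 360 and 309. The repo values belong to the downstream peak in an intron of 14-3-3epsilon.

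Few of the sequence words searched on both strands were found within 50 bp of the 11 summits. Of the words that match E-boxes of Achaete-Scute proteins with Daughterless, CAGCTG was found at 1 peak, the mira start, and in 5.99% of all conservative windows. CAGGTG was found at none, against 3.76%. Any CANNTG, which includes both of these words and CACGTG, was found at 3 of the 11 peaks (the strong downstream repo peak, mira and the brwl peak), against 40.6%. TATAAA, a word added after seeing the data, was found at 2 peaks, those near pros and gcm shown above, against 13%. GAGAGAG, the GAGA factor word, was found at 1 peak, at svr, against 11.6%. The Gcm word ATGCGGG (0.699% of windows), CACGTG (1.6%) and the DRE word TATCGATA (0.898%) were found at none of the 11. No match says only that these letters are not in the window.

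The promoters of the genes, from 250 bp upstream to 50 bp downstream of the most upstream TSS, were searched in the same way. CANNTG was present in 5 of 10 promoters (ac, ase, l(1)sc, dpn and gcm), against 77.3% of protein-coding genes. CAGCTG was present in ac and gcm, against 17.7%, and CAGGTG in ac and ase, against 9.34%. GAGAGAG was present in sc and elav, against 5.86%, and TATAAA in ac and repo, against 45.9%. None of these counts was tested.

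Other genes of the same pathways were counted over 64 genes in 7 groups, beside the 10 fate genes. A conservative summit lay within 500 bp of a TSS at 21 of the 64, beside 10.9% of protein-coding genes. Within 10 kb it lay at 42 of the 64, beside 45.9%. The start-site count was 23 in the other list, beside 12.3% of protein-coding genes, 16 in replicate 1, beside 7.9%, and 17 in replicate 2, beside 8.16%. A start-site summit in the conservative list and in both replicates was found at 14 of the 64, beside 5.51% of protein-coding genes. The neuroblast and ganglion mother cell factors had 7 of 16, and all 7 were also called in both replicates. The glial genes had 4 of 10, of which 3 were called in both replicates. The group of other proneural genes and genes that act with or against them had 3 of 8, none of them in both replicates. These were cato, emc and hairy, of which emc and hairy are not proneural genes. The asymmetric division genes had 2 of 13 (brat and numb), the elav paralogs 1 of 2 (fne) and the Notch pathway 1 of 7 (mam). The Notch group lacked Delta (Dl), whose symbol matched no unique gene of the annotation. The Enhancer of split group, a cluster in which neighbouring genes share peaks, had 3 of 8.

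The 6 strongest start-site peaks of these groups all belonged to the group of neuroblast and ganglion mother cell factors. The homeobox gene Drop (Dr) had a signal of 1992 in the conservative list, 1019 in replicate 1 and 912 in replicate 2. The Sox genes SoxNeuro (SoxN) and Dichaete (D) had 1861 and 1608, with 927 and 926 in the replicates for SoxN and 910 and 695 for D. The nuclear receptor gene svp had 1311, with 677 and 634. These 4 genes lay above the repo start-site peak of 619 in the conservative list. The homeobox gene even skipped (eve) was closer to it, though also above it, at 681, with 271 and 386. Vnd, which patterns the ventral neuroectoderm, was below it at 585, with 351 and 231. In replicate 1, where the repo start-site peak had 335, both of these orders were turned round, with eve below repo and vnd above it. The elav paralog fne had a start-site peak of 80.4 that neither replicate list held within 500 bp of its TSS, where elav had 243.

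**Figure D5:**
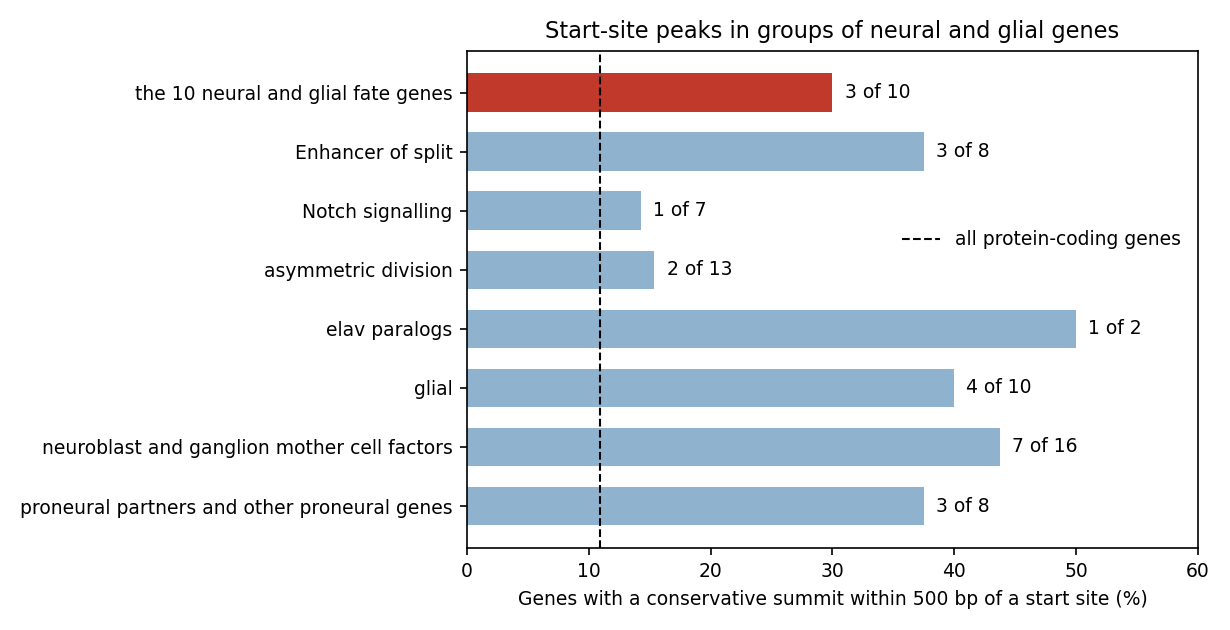
Bars give the percent of genes in each group with a conservative summit within 500 bp of a TSS, with the counts beside them, and the dashed line gives the 10.9% of all protein-coding genes. The 10 fate genes stand at 3 of 10, the neuroblast and ganglion mother cell factors at 7 of 16 and the asymmetric division genes at 2 of 13.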

How the data were processed

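Embryo ChIP-seq peak lists in dm6 were analysed, with a ranked and a thresholded list for each of 2 biological replicates and 2 thresholded lists drawn from both. Column 7 of the deposited lists held the signal value of the authors' peak caller, and column 5 held a deposited score of at most 1000, taken to be a scaled form of the irreproducible discovery rate (IDR). The sources used here give no caller, aligner or scaling. The lists held no counts, so depth is unknown. A further 16 columns of the series' ranked lists, whose names matched neither replicate, were left out. Signals were ranked within a list, and replicates were compared by the ranks of shared peaks. Signals of different lists are printed or plotted side by side, and the SD over the replicate lists' medians is given, but whether their scales match is unknown. Genes were those of Ensembl release 115, and sequence was read from RefSeq's dm6 genome. Symbols were matched exactly or through a unique synonym. With 1 group there was no contrast, and counts were set beside the same count over all protein-coding genes or peaks. The genes, gene groups and words were chosen with earlier results of these data known. All 10 fate genes and their peaks were named, as were the 6 genes of the groups with the strongest start-site peaks, and the other genes named beside a count were chosen after their values were seen. Scripts used Python 3.11.15, numpy 2.4.6 and matplotlib 3.10.9 and were tested on simulated peaks.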

Additional observations from a re-analysis of the deposited data

How the results depend on the processing

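The 3 genes with a start-site peak became 2 with distances of 200 bp, in the part of the list at or above its median signal (the stronger part) or with either replicate alone, and stayed 3 in the other list and with 1000 bp. The 5 genes with a peak within 10 kb became 3 with the stronger part of the list, 3 when a peak counted only for the gene of the nearest TSS, and 3 to 4 when a replicate was left out. The 11 peaks became 4 with the stronger part of the list, 4 within 2 kb, 3 by the nearest TSS, and 6 to 7 when a replicate was left out. Their median signal of 85.4 became 431, 168 and 243 under the stronger part, 2 kb and nearest TSS, which leave fewer peaks, and 67.1 to 142 when a replicate was left out (SD 53.3, n = 2). The 5 shared peaks became 4 when a summit of each replicate had to lie within 100 bp of the conservative one, and 11 with ranked lists. The single peak with GAGAGAG became 2 within 100 bp and 0 within 25 bp of the summit, windows chosen after seeing the data. Of 35 alternatives, 20 left the count within 1.5 times, or the median within that SD, which mixes lists whose scales may differ. Counts and medians have no sign to reverse, but their side of the background changed. The median was below that of all peaks in the conservative list (85.4 against 100) and in replicate 1 (67.1 against 70.4), and above it in the other list (131 against 91) and in replicate 2 (142 against 72.6). The 5 of 10 genes within 10 kb stood above the 45.9% of all genes, and the 4 of 10 in the other list below 50.1%. No paired analysis was possible because both samples belong to 1 group. Depth is unknown, so an empty window cannot be read as absence of binding.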

Other observations

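The conservative list was not contained in the other thresholded list: 2634 of its 3006 peaks were there with the same interval and summit and 372 were not. Of the 11 peaks at the fate genes 3 were among those not found there, the brwl peak in the window of gcm and both svr peaks in that of elav. In the conservative list 2241 peaks, and 8 of the 11 at the fate genes, had the same width of 350 bp, while the start-site peaks of repo and elav were narrower, at 242 and 95 bp.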
